A study of Mus musculus with 28 samples.

Results

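RNA was compared between the GFP+ and the GFP- cells sorted from the thyroid gland of H2B-GFP mice at 3 months of age. The comparison rests on the 4 libraries labelled thyroid, GFP+, 3 months and the 4 labelled thyroid, GFP-, 3 months, 8 of the 28 libraries in the series, chosen by those labels alone. The other libraries hold the same 2 fractions of the thyroid at 6 and 9 months and of the salivary gland at 9 months. The thyroid libraries at 6 and 9 months also entered the filter on low counts and the estimate of the spread. All groups are freshly sorted cells of H2B-GFP animals, so the GFP- group carries the transgene name too and is not a sample from animals without it. The promoter that drives the transgene, any labelling or chase schedule, and whether a library came from 1 animal or several are not given in the sources used here. The p-values therefore measure the spread between these libraries, which may be technical.

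H2B-GFP is a fusion of a core histone with green fluorescent protein that is built into chromatin. Where its production is stopped, it is diluted at each cell division, so cells that divide seldom stay bright longest, and the fusion is used for that reason to look for slowly cycling cells. The thyroid consists of follicles of hormone-producing epithelial cells that store thyroglobulin, calcitonin-producing C cells between them, a dense net of fenestrated capillaries, and fibroblasts and mural cells in the stroma. The parathyroid glands, which make parathyroid hormone, lie on or in it.

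Read depth differed far more in the GFP+ group than in the GFP- group. The GFP- replicates 1 to 4 held 93270, 163544, 27964 and 78015 reads in genes, and the GFP+ replicates 1 to 4 held 1562, 5896, 18639 and 174957. GFP+ replicate 4 alone held 87.0% of the 201054 reads of its group. Replicate 1 had a read in 443 genes, replicate 2 in 1555, replicate 3 in 3004 and replicate 4 in 9690, against 3484 to 8477 genes in the GFP- libraries. A single read was worth 640 CPM (the usual counts-per-million scale, relative to reads in genes) in GFP+ replicate 1 and 5.72 CPM in replicate 4. Reads outside genes made up 64.9% and 67.0% of GFP+ replicates 1 and 2, 21.8% and 24.1% of replicates 3 and 4, and 17.9 to 31.2% of the GFP- libraries. A gene with no read in a whole group could still have been present at up to 14.9 CPM in GFP+ or 8.27 CPM in GFP- cells, taking 3 reads over the group as the limit. Because of this, read numbers per library are given beside each fold change. CPM leaves out the scaling factors of the fit, which were largest in the shallow GFP+ replicates 1 and 2. Statements that libraries overlap, or lie above or below others, hold for CPM and may not hold on the fitted scale.

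**Figure D1:**
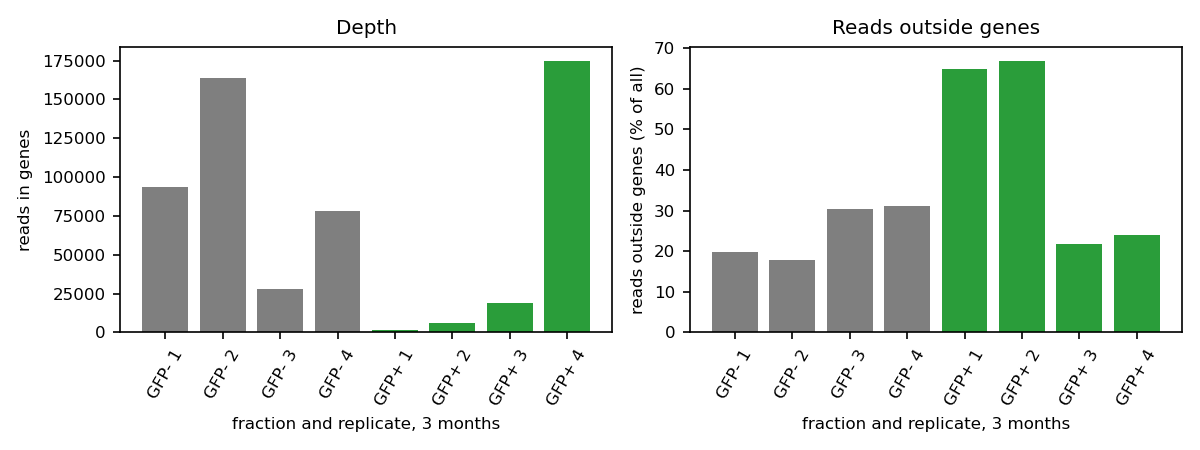
Reads in genes (left, linear axis from 0) and reads outside genes as a percentage of all reads (right), 1 bar for each of the 8 libraries, grey for GFP- and green for GFP+. GFP+ replicates 1 and 2 have the fewest reads in genes, 1562 and 5896, and the largest shares outside genes, 64.9% and 67.0%.

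Of 1900 genes tested, 94 (4.95%) were higher and 90 (4.74%) lower in GFP+ than in GFP- cells at an adjusted p below 0.05 in the quasi-likelihood test of edgeR (Benjamini-Hochberg), the test behind every adjusted p given here. The named genes that rose with the smallest adjusted p were Acta2, Myoc, Abca8b, Gpx3, Fhl1 and Thbs4. Among the named genes that fell with the smallest adjusted p were the fenestrated capillary markers Esm1, Btnl9, Kdr and Igfbp3 and the C cell markers Calca and Scg2. In bulk samples such as these, fewer cells of a type and less RNA per cell cannot be told apart. The median log2 fold change over all tested genes was −0.26, and each gene list below is read against that value and against these 2 percentages. The split between directions moved with the scaling. It was 94 to 90 with TMM factors, 47 to 68 with DESeq2, and 199 to 66 when libraries were scaled by their totals only, which moved the log2 fold changes up by a median of 0.50. With all libraries under 10000 reads left out, which leaves GFP+ replicates 3 and 4 on that side, it was 157 to 75. In that fit 2462 genes were tested, with a median of −0.03. Through 6 changes of scaling, tool and library set and 8 fits that each left out 1 library, 21 of the higher and 40 of the lower genes stayed called. With a fit that took the replicate number as a block added to these, 6 and 27 stayed called. Fits with other filters on low counts were not among these alternatives. With no such filter, 7 of the 94 higher and 12 of the 90 lower genes were called again. Without GFP+ replicate 4, 37 of 1816 tested genes were higher and 132 lower. Of the genes called with it, 30 of the 94 higher and 67 of the 90 lower were called again. The median over all tested genes moved down to −0.93 in that fit. List counts without GFP+ replicate 4 are therefore to be read against these values. The higher genes were seen mainly in the deeper libraries: GFP+ replicates 1 to 4 had a read in 19, 30, 87 and 93 of the 94.

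**Figure D2:**
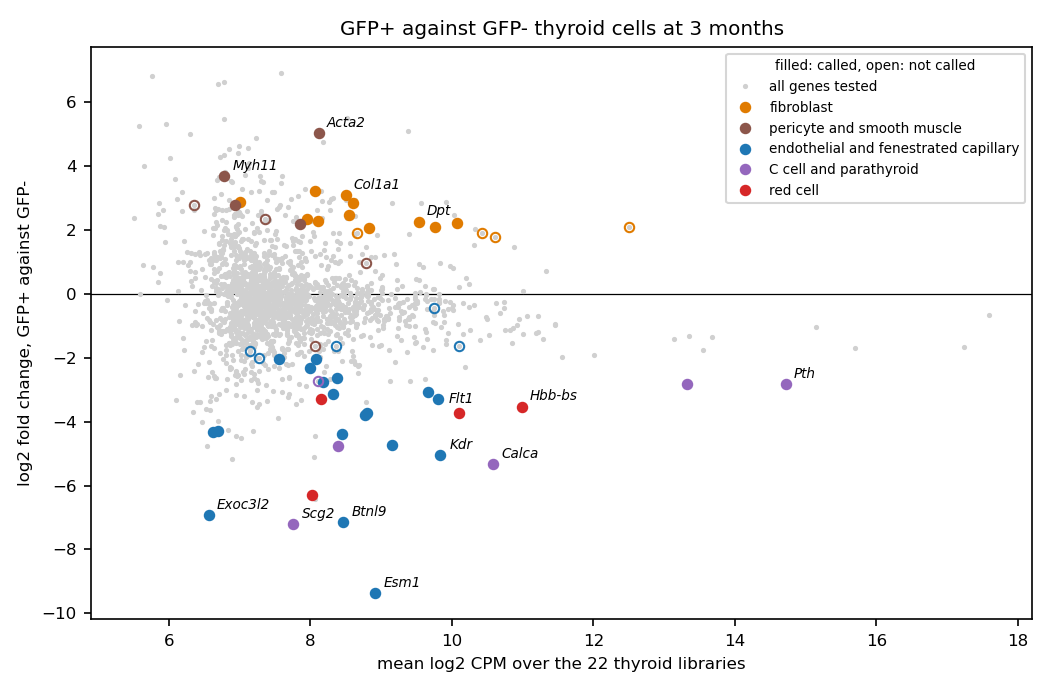
Fitted log2 fold change (GFP+ against GFP- at 3 months) of each of the 1900 tested genes against its mean log2 CPM over the 22 thyroid libraries; markers of 5 kinds of cell are coloured, filled where called and open where not. Fibroblast and smooth muscle markers lie above 0 with few exceptions, with Acta2 at 5.02 the highest of them, and endothelial, C cell, parathyroid and red cell markers lie below 0, with Esm1 the lowest (with library totals as the scaling, Cd34 lies above 0).

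Of 9 tested genes of smooth muscle contraction, 4 rose in GFP+ cells, 0 fell, and Cald1, Myl6, Tpm1, Flna and Tagln did not pass. Acta2, the smooth muscle actin of vascular mural cells and myofibroblasts, had 1, 2, 0 and 1 reads in GFP- replicates 1 to 4 and 0, 4, 11 and 118 in GFP+ replicates 1 to 4. In CPM, this was 10.7, 12.2, 0 and 12.8 against 0, 678, 590 and 674, so GFP+ replicates 2, 3 and 4 all lay far above every GFP- library and replicate 1, in which a single read would have counted 640 CPM, had none. The means were 8.94 ± 6.03 and 486 ± 326 CPM (SD, n = 4 each), with a log2 fold change of 5.02 ± 0.83 (SE; adjusted p = 9.75e-07). Myh11, the smooth muscle myosin heavy chain, had 1, 2, 0 and 1 reads in GFP- and 0, 0, 7 and 41 in GFP+ libraries. The Myh11 reads in GFP+ cells came from replicates 3 and 4 (log2 fold change 3.68 ± 0.94, adjusted p = 0.00273), and without replicate 4 the gene was no longer called (adjusted p = 0.0575).

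Of 16 pericyte and smooth muscle markers, 8 were tested, of which 4 rose (Acta2, Myh11, Mylk and Tpm2), 0 fell, and the median log2 fold change was 2.56. The 4 that did not pass were Mcam, Rgs5, Abcc9 and Tagln. Without GFP+ replicate 4, 2 of the 8 were called higher (Acta2 and Tpm2) and 1 lower. The lower one, Mcam, an adhesion molecule of pericytes and endothelium, had 36, 98, 5 and 11 reads in GFP- and 0, 0, 0 and 41 in GFP+ libraries. Summed over the list, the marker level was 804, 1082, 536 and 615 CPM in the GFP- libraries and 0, 2035, 3541 and 3412 CPM in the GFP+ libraries, so 3 of 4 GFP+ libraries were above the whole GFP- range. Mylk, the kinase that activates smooth muscle myosin, had 6, 11, 2 and 7 against 0, 0, 19 and 77 reads (log2 fold change 2.18, adjusted p = 0.0122). Tpm2, a tropomyosin of the contractile filament, had 2, 0, 2 and 2 against 0, 3, 6 and 23 (log2 fold change 2.79, adjusted p = 0.0263). Mylk and Tpm2 each lost their call in DESeq2 and without GFP- replicates 1 or 2 or GFP+ replicate 3, Mylk also without GFP+ replicate 4 and Tpm2 also without GFP- replicate 4, whereas Acta2 was called in every fit that left out 1 library.

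Fhl1, a LIM-domain protein of muscle and stromal cells, was listed at 0 reads in all 4 GFP- libraries and had 0, 2, 5 and 29 reads in the GFP+ libraries. It was at least 21.7-fold higher in GFP+ cells, taking 3 reads over the GFP- group as its limit (adjusted p = 6.70e-05). The 250 bases before one of its 2 RefSeq starts (GRCm38.p6, chrX:56779433-56779682, + strand) are shown because they hold a CArG box, the element bound by serum response factor that many contractile genes carry. The box is in capitals, 102 to 93 bases before the start.
Fhl1: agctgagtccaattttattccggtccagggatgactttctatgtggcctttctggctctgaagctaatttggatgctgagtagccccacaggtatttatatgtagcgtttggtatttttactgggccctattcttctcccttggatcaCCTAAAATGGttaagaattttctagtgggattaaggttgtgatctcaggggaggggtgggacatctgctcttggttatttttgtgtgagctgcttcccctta
The box was searched in its strict form, CC, a fixed run of only A or T, and GG. This form was found on either strand in 1.47% of the 32817 RefSeq promoter windows of this length. Of the genes with a window, 1 of 69 higher, 1 of 69 lower and 27 of 1463 tested (1.85%) had it. A match is a run of letters and not a measured binding site. Acta2 had no match to this strict form in its window, and Myh11 was not among the windows searched. A box with another letter within the run would have been missed, so the search does not show that Acta2 lacks one.

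Several genes that were almost unread in GFP- cells were read in GFP+ cells. Myoc, myocilin, a secreted glycoprotein of stromal and trabecular cells, had 1, 0, 0 and 1 reads in GFP- and 0, 2, 13 and 84 in GFP+ libraries. The ratio of its summed CPM was 89.3 (95% interval 24.1 to 748, counting error only; adjusted p = 1.59e-06), and it was read in 3 of 4 GFP+ libraries. Abca8b, a lipid transporter of the ABC family, had no GFP- read and 0, 0, 7 and 43 GFP+ reads, at least 30.1-fold more (adjusted p = 3.14e-06). Its neighbour in the family Abca8a had 10, 9, 5 and 10 against 2, 4, 42 and 184 reads. In CPM that was 107, 55.0, 179 and 128 against 1280, 678, 2253 and 1052, so the 2 groups did not overlap and each GFP+ library, however shallow, lay above all 4 GFP- libraries (log2 fold change 2.85 ± 0.72, adjusted p = 0.00246).

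Thbs4, a thrombospondin of tendon and vessel-wall matrix, had no GFP- read and 0, 0, 6 and 34 GFP+ reads, at least 24.1-fold more (adjusted p = 8.58e-05). Gpx3, the secreted glutathione peroxidase, had 2, 1, 0 and 1 against 0, 0, 20 and 73 reads, means of 10.1 ± 9.20 and 373 ± 507 CPM (SD, n = 4 each), and a log2 fold change of 4.74 ± 0.84 (adjusted p = 4.74e-06). Both Thbs4 and Gpx3 were unread in the 2 shallow GFP+ libraries and read in both deeper ones. Gpx3 was the only called gene among 18 tested antioxidant genes, whose median log2 fold change was 0.07. Cygb, cytoglobin, an oxygen-binding protein of fibroblasts, had 0, 4, 0 and 1 against 0, 1, 3 and 60 reads (log2 fold change 3.69 ± 0.81, adjusted p = 0.000586) and lost its call without GFP+ replicate 4. Zfhx3, a large homeodomain transcription factor, had 0, 3, 0 and 4 against 5, 0, 5 and 48 reads (log2 fold change 3.48, adjusted p = 0.000832). Its 5 reads in GFP+ replicate 1 stand for 3201 CPM, the highest value of the gene in the 8 libraries, and it stayed called without that library.

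Fibroblast markers were higher in GFP+ cells as a group. Of 18 markers, 15 were tested, of which 11 rose and 0 fell, and all 15 had a positive fitted fold change (median 2.26). Their summed level was 2402, 3455, 1502 and 2333 CPM in GFP- replicates 1 to 4 and 14725, 5767, 23660 and 21714 CPM in GFP+ replicates 1 to 4. In CPM, without the TMM factors of the fit, the groups did not overlap: the lowest GFP+ library, replicate 2, lay above the highest GFP- library.  Without GFP+ replicate 4, 2 of 15 tested markers were called higher (median 1.78), and without the libraries under 10000 reads 16 of 17 were.

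Col1a1, a chain of type I collagen, had 1, 12, 0 and 4 reads in GFP- and 0, 1, 13 and 114 in GFP+ libraries (means 33.8 ± 34.4 and 380 ± 348 CPM, SD, n = 4 each; log2 fold change 3.09 ± 0.69, adjusted p = 0.000718). Col1a1 was unread in GFP+ replicate 1 and stayed called when any 1 library was left out. Its partner chain Col1a2 had 15, 27, 3 and 19 against 2, 5, 26 and 282 reads. In CPM that was 161, 165, 107 and 244 against 1280, 848, 1395 and 1612, without overlap (log2 fold change 2.21, adjusted p = 0.0281). The Col1a2 call was near the threshold and ended in 6 of the 8 fits that left out 1 library, those without GFP- replicates 1, 2, 3 or 4 and without GFP+ replicates 3 or 4. Fbn1, fibrillin, the backbone of elastic microfibrils, had 10, 7, 0 and 4 against 1, 2, 19 and 105 reads, or 107, 42.8, 0 and 51.3 against 640, 339, 1019 and 600 CPM. All 4 GFP+ libraries lay above all 4 GFP- libraries for Fbn1 (log2 fold change 2.85 ± 0.68, adjusted p = 0.00149), and the call held without any 1 library. Pdgfra, the receptor that marks many fibroblasts, had 4, 1, 2 and 1 against 0, 1, 7 and 76 reads (log2 fold change 3.23, adjusted p = 0.00152), a call that ended without GFP+ replicate 4.

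**Figure D3:**
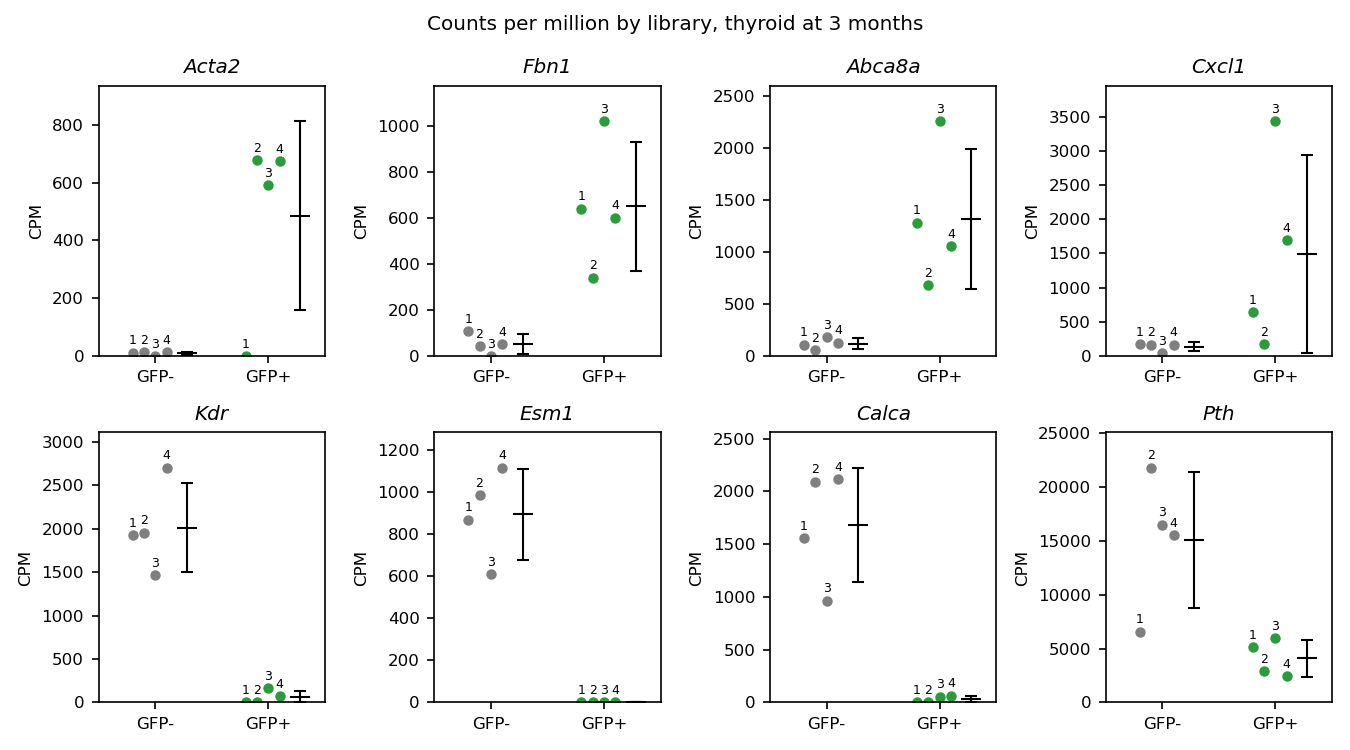
CPM (linear axes from 0) of 8 genes in each library, numbered by replicate, with the mean and SD of the 4 libraries drawn beside each fraction. Fbn1 and Abca8a are higher in every GFP+ library than in any GFP- library, Acta2 in 3 of 4, and Kdr, Esm1, Calca and Pth are lower in every GFP+ library.

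Among the collagens, 6 of 12 tested rose and 0 fell (median 2.16). They were the fibrillar chains Col1a1, Col1a2, Col3a1 and Col5a2 and the microfibrillar chains Col6a2 and Col6a3. The basement membrane chains Col4a1 and Col4a2 were tested and did not pass, and neither did Col15a1, Col14a1, Col6a1 and Col5a3. Col6a3 had 3, 6, 3 and 6 against 0, 0, 29 and 82 reads (log2 fold change 2.95, adjusted p = 0.00136) and was the collagen whose call ended without GFP+ replicate 3 and not without replicate 4. Col5a2, which nucleates collagen fibrils, had 0, 0, 1 and 0 against 0, 0, 2 and 43 reads (ratio of summed CPM 81.2, 95% interval 13.8 to 3278, counting error only; adjusted p = 0.000315). All but 2 of its GFP+ reads came from replicate 4, without which it was not called. Without GFP+ replicate 4, 2 of 12 collagens were called higher.

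Of 25 tested matrix proteoglycans and glycoproteins, 13 rose and 0 fell (median 2.10). Besides Fbn1 they included Fbln2, an elastic fibre protein, with 3, 3, 0 and 4 against 0, 0, 12 and 53 reads (log2 fold change 2.96, adjusted p = 0.00234). Tnxb, a tenascin that spaces collagen fibrils, had 0, 2, 0 and 2 against 4, 0, 3 and 25 reads (log2 fold change 3.53, adjusted p = 0.00273), and the shallow GFP+ replicate 1 gave 4 of its reads. Fbln2 and Tnxb stayed called when any 1 library was left out. Aspn, asporin, a small collagen-binding proteoglycan, had 5, 12, 0 and 6 against 1, 2, 9 and 121 reads. The Aspn groups did not overlap in CPM (53.6, 73.4, 0 and 76.9 against 640, 339, 483 and 692; log2 fold change 2.61, adjusted p = 0.00273), and the call ended without GFP+ replicate 4. Dcn, Sparc, Fn1 and Postn were tested and did not pass. Without GFP+ replicate 4, 4 of the 25 were called higher, and without libraries under 10000 reads 18 of 26 were.

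Matrix-modifying enzymes and inhibitors followed with 6 of 16 tested higher and 0 lower (median 1.81), and 0 were called higher without GFP+ replicate 4. They included Serping1, the inhibitor of the first complement component, the protease Htra1, the procollagen processing enhancers Pcolce and Pcolce2, and the crosslinking enzyme Loxl1. Serping1 had 0, 13, 0 and 2 against 0, 0, 12 and 77 reads (log2 fold change 2.93, adjusted p = 0.00228), a call that also ended in DESeq2. The metalloproteinases Mmp2 and Mmp14 and the inhibitors Timp2 and Timp3 were tested and did not pass.

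Genes of hyaluronan, the large sugar polymer of loose matrix, gave 3 higher of 5 tested and 0 lower (median 2.47), and the same count of 3 of 5 was reached without GFP+ replicate 4. Has1, a hyaluronan synthase, had 6, 24, 0 and 3 against 0, 0, 22 and 194 reads (log2 fold change 2.84 ± 0.68, adjusted p = 0.00149). Tnfaip6, an inflammation-induced protein that links hyaluronan to other matrix, was at 85.8, 361, 35.8 and 256 CPM in GFP- replicates 1 to 4 and 3201, 1187, 2307 and 1669 CPM in GFP+ replicates 1 to 4, the shallow replicates 1 and 2 giving 5 and 7 reads. The lowest GFP+ library, replicate 2, lay above the highest GFP- library for Tnfaip6 (log2 fold change 2.47 ± 0.71, adjusted p = 0.00956), although the call ended without GFP- replicate 1. Vcan, versican, a hyaluronan-binding proteoglycan, had 1, 3, 0 and 1 against 0, 0, 7 and 28 reads (log2 fold change 3.19, adjusted p = 0.00464).

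Among inflammatory and NF-kB target genes, 7 of 14 tested rose, 0 fell, and the median was 2.15. Nfkbia, Nfkbiz, Nfkb1, Cxcl12, Cxcl10, Csf1 and Il33 were tested and did not pass. A positive fitted fold change was found for 12 of the 14, and not for Nfkbia and Cxcl12. Cxcl1, a neutrophil-attracting chemokine, had 16, 27, 1 and 13 reads in the GFP- libraries and 1, 1 and 64 in GFP+ replicates 1 to 3 (log2 fold change 2.87 ± 0.72, adjusted p = 0.00241). In CPM it was 172, 165, 35.8 and 167 against 640, 170, 3434 and 1698, so 3 GFP+ libraries lay above every GFP- library and replicate 2, with 1 read, lay within the GFP- range. Ccl11, the eosinophil chemokine eotaxin, had 0, 2, 0 and 1 against 0, 0, 7 and 33 reads (ratio of summed CPM 24.1, 95% interval 7.66 to 122; adjusted p = 0.00138), with all GFP+ reads from the 2 deeper libraries. Cxcl1 and Ccl11 stayed called when any 1 library was left out. Vcam1, Ccl2, Ptgs2, Ccl7 and Il6 were called only with GFP+ replicate 4 in the fit, which held 31 of 34, 28 of 29, 32 of 33, 50 of 54 and 71 of 76 of their GFP+ reads. Il6, the inflammatory cytokine, had 10, 2, 0 and 2 against 0, 0, 5 and 71 reads (log2 fold change 2.29, adjusted p = 0.0185). Leaving out GFP- replicate 2 also ended the calls of Ptgs2, Ccl7 and Il6, and leaving out GFP- replicate 4 those of Ccl7 and Il6. Without replicate 4, 2 of the 14 were called higher.

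The 250 bases before the start of Cxcl1 (GRCm38.p6, chr5:90890995-90891244, + strand) and of Il6 (chr5:30012864-30013113, + strand) are shown because they hold the consensus site of NF-kB, the transcription factor that induces both genes. The match is in capitals, from 71 bases before the start of Cxcl1, where matches on the 2 strands overlap, and 44 to 35 bases before that of Il6.
Cxcl1: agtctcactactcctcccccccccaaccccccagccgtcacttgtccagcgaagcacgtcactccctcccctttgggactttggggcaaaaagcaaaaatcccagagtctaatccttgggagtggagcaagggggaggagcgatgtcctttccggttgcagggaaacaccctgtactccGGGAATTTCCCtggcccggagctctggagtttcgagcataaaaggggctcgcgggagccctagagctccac
Il6: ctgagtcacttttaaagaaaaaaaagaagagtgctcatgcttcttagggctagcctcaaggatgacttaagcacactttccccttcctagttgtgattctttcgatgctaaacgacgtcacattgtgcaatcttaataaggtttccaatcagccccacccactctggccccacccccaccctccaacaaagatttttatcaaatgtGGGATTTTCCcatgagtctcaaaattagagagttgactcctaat
On either strand, the NF-kB consensus was in 6 of 69 higher genes with a window (8.70%), 15 of 69 lower genes (21.7%), 176 of 1463 tested genes (12.03%) and 7.25% of all windows. Il6 is named here for its window and was chosen after its values were seen.

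Immune cells themselves were hardly read in either fraction. Ptprc, which encodes the CD45 protein of white blood cells, had 0 reads in all 8 libraries. Lymphocyte markers had 9 reads over the GFP- and 0 over the GFP+ libraries, macrophage and dendritic cell markers 38 and 55, and neutrophil and mast cell markers 1 and 2. No member of these 3 lists had enough reads to be tested.

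Complement genes gave 4 higher of 6 tested and 0 lower (median 2.82). They included Serping1 and the initiating proteases C1ra and C1s1. C1ra had 2, 2, 0 and 2 against 0, 0, 8 and 42 reads (log2 fold change 3.27, adjusted p = 0.00242), and it was the complement gene that kept its call without GFP+ replicate 4. In the insulin-like growth factor axis both directions occurred, with 3 of 9 tested higher and 2 lower. Igf1, the growth factor, had 2, 5, 1 and 3 against 0, 4, 2 and 45 reads (log2 fold change 2.46, adjusted p = 0.0162) and lost its call without GFP+ replicate 4, as did Igfbp6 and Htra1. The Igf1 call also ended without GFP- replicates 1 or 2, that of Igfbp6 without GFP- replicate 4 or GFP+ replicate 3, and that of Htra1 without GFP- replicate 2. The binding proteins Igfbp3 and Igfbp7, both made by endothelium among other cells, fell. Igfbp7 had 168, 427, 31 and 172 against 0, 1, 14 and 141 reads (log2 fold change −2.28 ± 0.72, adjusted p = 0.021).

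Among TGF-beta and BMP genes 3 of 14 tested rose, Tgfbi and Tgfbr3 among them, 0 fell, and the median was 0.50. Tgfbi, a matrix protein induced by TGF-beta, had 1, 0, 0 and 0 against 0, 0, 1 and 31 reads (ratio of summed CPM 57.7, 95% interval 9.65 to 2351; adjusted p = 0.00273), and none of the 3 was called without GFP+ replicate 4. In the lipid transport list Abca8b, Abca8a and Apod rose among 9 tested and 0 fell (median 1.89), Apod only with GFP- replicates 2 and 4 and GFP+ replicate 4 in the fit.

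Capillary endothelial markers fell in GFP+ cells. Of 15 fenestrated capillary markers, 13 were tested, of which 12 were lower and 0 higher (median −4.33, or −4.28 with unread genes at their bounds). The count was again 12 of 13 both without GFP+ replicate 4 and without libraries under 10000 reads. Without GFP+ replicate 4 their median was −6.95, against −0.93 over all genes in that fit. Their summed level was 10496, 13073, 6365 and 11280 CPM in GFP- replicates 1 to 4 and 0, 509, 1288 and 1658 CPM in GFP+ replicates 1 to 4. Every GFP+ library lay below every GFP- library.

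Esm1, endocan, a secreted proteoglycan of VEGF-stimulated capillaries, had 81, 161, 17 and 87 reads in the GFP- libraries and 0 in all 4 GFP+ libraries. It was at least 63.9-fold lower, taking 3 reads over the GFP+ group as its limit (adjusted p = 6.61e-09). Btnl9, a butyrophilin-like protein of capillary endothelium, had 49, 154, 11 and 80 against 0, 0, 0 and 1 reads. The GFP- to GFP+ ratio of its summed CPM was 163 (95% interval 29.0 to 6457, counting error only; adjusted p = 5.82e-08). Exoc3l2, an exocyst component linked to VEGF receptor traffic, had 17, 28, 5 and 10 reads against none, at least 11.1-fold lower (adjusted p = 0.000863).

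Kdr, the main signalling receptor for VEGF, had 180, 320, 41 and 211 reads in GFP- and 0, 0, 3 and 13 in GFP+ libraries. The Kdr levels were 1930, 1957, 1466 and 2705 against 0, 0, 161 and 74.3 CPM, and the highest GFP+ library stayed below every GFP- library (means 2014 ± 512 and 58.8 ± 76.6 CPM, SD, n = 4 each; log2 fold change −5.05 ± 0.88, adjusted p = 3.14e-06). Nrp1, a VEGF co-receptor also found on other cells, had 171, 320, 12 and 91 against 0, 0, 5 and 52 reads (log2 fold change −3.06 ± 0.73, adjusted p = 0.00154). Plvap, which forms the diaphragms of capillary fenestrae, had 72, 173, 13 and 40 against 0, 0, 0 and 17 reads (log2 fold change −3.73 ± 0.76, adjusted p = 0.000102). For Plvap, as for Igfbp3 and Plpp1, all GFP+ reads came from replicate 4. Of 6 tested genes of VEGF and angiopoietin signalling, 5 fell (Esm1, Kdr, Flt1, Nrp1, Adgrl4) and 0 rose. Without GFP+ replicate 4 all 6 were lower (median −4.60, against −0.93 over all genes in that fit).

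Of 11 tested pan-endothelial markers, 7 were lower and 0 higher, with a median of −2.04. Those that fell were Kdr, Emcn, Flt1, Egfl7, Esam, Pecam1 and Cdh5. Eng, Tek, Ptprb and Cd34 were tested and did not pass. Emcn, endomucin, a surface glycoprotein of capillaries and veins, had 60, 165, 23 and 63 against 0, 0, 1 and 17 reads (log2 fold change −3.78 ± 0.75, adjusted p = 6.70e-05). Pecam1, the junction protein CD31, had 47, 61, 10 and 46 against 2, 0, 1 and 31 reads, or 504, 373, 358 and 590 against 1280, 0, 53.7 and 177 CPM. In CPM, its 2 reads in GFP+ replicate 1 give the highest level in any of the 8 libraries, and the groups overlap. The fit divides that level by a TMM factor of 3.548, against 0.638 to 0.779 in the GFP- libraries. The Pecam1 call (log2 fold change −2.04, adjusted p = 0.0292) ended with library totals as the scaling and without GFP+ replicate 2 or 3.

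The windows before Emcn (GRCm38.p6, chr3:137340828-137341077, + strand) and Flt1, the decoy VEGF receptor (chr5:147726012-147726261, - strand), are shown because each holds 2 copies of AGGAAG, a core bound by the ETS factors that act in endothelium. The copies are in capitals, as CTTCCT where the match is on the opposite strand.
Emcn: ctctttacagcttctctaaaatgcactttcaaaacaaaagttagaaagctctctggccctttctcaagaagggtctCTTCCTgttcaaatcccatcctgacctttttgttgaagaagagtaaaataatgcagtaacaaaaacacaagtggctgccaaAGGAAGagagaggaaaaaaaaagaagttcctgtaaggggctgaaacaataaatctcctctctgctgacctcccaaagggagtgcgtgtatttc
Flt1: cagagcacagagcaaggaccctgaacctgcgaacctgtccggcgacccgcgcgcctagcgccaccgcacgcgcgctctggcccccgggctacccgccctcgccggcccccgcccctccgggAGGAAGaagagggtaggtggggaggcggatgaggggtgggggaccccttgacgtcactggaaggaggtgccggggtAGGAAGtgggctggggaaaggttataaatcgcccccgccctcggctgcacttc
This short motif is common. Searched on either strand, AGGAAG was in 27 of 69 lower genes with a window (39.1%), 24 of 69 higher genes (34.8%), 468 of 1463 tested genes (32.0%) and 29.5% of all windows.

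Genes of C cells and other hormone-secreting cells also fell. Calca, whose transcript encodes calcitonin and its related peptide, had 145, 342, 27 and 165 reads in GFP- and 0, 0, 1 and 11 in GFP+ libraries. The GFP- mean was 1682 ± 543 CPM and the GFP+ mean 29.1 ± 33.8 CPM (SD, n = 4 each), without overlap (log2 fold change −5.34 ± 0.99, adjusted p = 1.44e-05). Calca was the named gene whose call held under every alternative that was run. Scg2, secretogranin, a protein of secretory granules, had 19, 43, 2 and 17 reads against none, at least 14.96-fold lower (adjusted p = 4.18e-05). All 3 tested C cell markers fell, the third being Chga, with a median log2 fold change of −5.34, or −3.90 with Scg2 at its bound.

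Parathyroid hormone was read in all 8 libraries. Pth had 612, 3565, 462 and 1211 reads in GFP- and 8, 17, 111 and 422 in GFP+ libraries, or 6562, 21798, 16521 and 15523 against 5122, 2883, 5955 and 2412 CPM. All 4 GFP+ libraries lay below all 4 GFP- libraries, by little for GFP- replicate 1 (log2 fold change −2.83 ± 0.82, adjusted p = 0.0104). Without the libraries under 10000 reads Pth was not called (log2 fold change −2.30, adjusted p = 0.126). Chga, chromogranin, had 235, 1237, 231 and 431 against 4, 4, 44 and 175 reads (log2 fold change −2.83, adjusted p = 0.0142), and its call also ended without those libraries, in DESeq2 and with library totals as the scaling. Kl, the klotho co-receptor found on parathyroid cells, had 4, 42, 3 and 11 against 0, 0, 0 and 1 reads, a GFP- to GFP+ ratio of 33.3 (95% interval 5.74 to 1335, counting error only; adjusted p = 0.00249), and was not called without GFP+ replicate 4. GFP- replicate 2 carried the highest Pth level of the 8 libraries, and how far the amount of parathyroid tissue moved with the fractions was not tested.

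No gene of the hormone-producing follicular cells was called by the same test. Tg, thyroglobulin, the precursor protein of thyroid hormone, had 631, 802, 126 and 360 reads in GFP- and 3, 6, 36 and 643 in GFP+ libraries. The Tg levels were 6765, 4904, 4506 and 4614 against 1921, 1018, 1931 and 3675 CPM, so all 4 GFP+ libraries lay below all 4 GFP- libraries (means 5197 ± 1059 and 2136 ± 1112 CPM, SD, n = 4 each). The fitted difference did not pass (log2 fold change −1.91 ± 0.79, adjusted p = 0.11). It did pass without the libraries under 10000 reads (log2 fold change −1.16, adjusted p = 0.03) and without GFP+ replicate 4 (log2 fold change −2.91, adjusted p = 0.0325). In the latter fit the median over all tested genes was −0.93. With a stricter filter on low counts, or with the 8 libraries alone in the fit, Tg was also called lower.

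Of 15 follicular cell markers, 5 had enough reads to be tested, Tg, Dio1, Iyd and Foxe1 among them, and 0 were called in either direction (median −0.68). Iyd, the deiodinase that recycles iodide, had 32, 47, 1 and 19 against 0, 0, 8 and 34 reads (log2 fold change −0.68, adjusted p = 0.605). Pax8, the transcription factor that defines the follicular lineage, had 2, 5, 0 and 3 against 0, 0, 0 and 5 reads and was too low to be tested. Thyroid-labelled cells of both fractions thus had thyroglobulin reads in every library, while the lineage factor was read in 3 GFP- libraries and 1 GFP+ library.

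Zbtb20, a zinc finger repressor placed among the thyroid transcription factors, had 17, 50, 4 and 34 against 2, 5, 16 and 147 reads. In CPM the groups did not overlap, but CPM leaves out the TMM factors, 3.548 in GFP+ replicate 1. The test, which uses them, did not call Zbtb20 (log2 fold change 0.94 ± 0.66, adjusted p = 0.442). It was called where the libraries under 10000 reads were left out (log2 fold change 1.28, adjusted p = 0.0291), where totals alone set the scaling, and with a stricter filter on low counts. The simple epithelium markers Epcam, Cdh1 and Cldn7 were tested and not called (median −0.87). Epcam had 12, 22, 2 and 12 against 0, 0, 3 and 16 reads.

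Epithelia of neighbouring organs were read unevenly. The 10 airway markers summed to 3, 42, 0 and 10 reads in GFP- replicates 1 to 4 and 0, 3, 5 and 252 in GFP+ replicates 1 to 4. The 14 salivary acinar markers summed to 4, 16, 0 and 81 and 8, 9, 2 and 210 reads. In CPM the airway list was at 32.2, 257, 0 and 128 in GFP- and 0, 509, 268 and 1440 in GFP+ replicates 1 to 4, highest in GFP+ replicate 4. The salivary list was at 42.9, 97.8, 0 and 1038 in GFP- and 5122, 1526, 107 and 1200 in GFP+ replicates 1 to 4, highest in the shallow GFP+ replicate 1 on 8 reads. Of both lists, 0 members were called, and their part in the results above was not tested.

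Outside the cell type lists, some single genes fell. Rsad2, viperin, an antiviral protein induced by interferon, had 42, 86, 14 and 33 reads in GFP- and 0, 0, 1 and 2 in GFP+ libraries. The GFP- to GFP+ ratio of its summed CPM was 32.3 (95% interval 10.9 to 158, counting error only; adjusted p = 1.44e-05). Of 13 tested interferon response and class I genes, Rsad2 and Irf1 fell and 0 rose (median −1.44), and Isg15, Bst2 and B2m did not pass. The Irf1 call ended without GFP- replicate 1 or GFP+ replicate 3.

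Nnat, neuronatin, a small imprinted membrane protein of endocrine and nerve cells, had 11, 41, 14 and 31 against 1, 0, 0 and 2 reads, a GFP- to GFP+ ratio of 17.9 (95% interval 5.95 to 88.4, counting error only; adjusted p = 0.000586). Hspb1, a small heat shock protein, had 12, 34, 6 and 16 against 0, 0, 0 and 6 reads (log2 fold change −3.07, adjusted p = 0.00716) and was the called gene among 13 tested heat shock genes, whose median was −0.98. The 4 tested globin genes fell. Hbb-bs had 142, 132, 6 and 28 against 0, 0, 0 and 24 reads (log2 fold change −3.53, adjusted p = 0.00434). Globins report red cells carried into a sort, 1 of the 4 was called without the libraries under 10000 reads, and their near-identical copies make the split between them uncertain.

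Few genes of cell division and quiescence were read well enough to be tested, and 1 was called. Of 23 cell cycle genes, 4 were tested (Ccnd1, Ccnd2, Cdk6, Tubb5) and 0 were called. Mki67, the standard proliferation marker, had 3 reads in GFP- replicate 3 and none in the other 7 libraries, so a difference in it was not detectable at this depth. Cdkn1a, the inhibitor of cyclin-dependent kinases induced by p53, had 45, 93, 19 and 38 against 1, 0, 6 and 66 reads (log2 fold change −1.36 ± 0.63, adjusted p = 0.175). Of 9 tested quiescence genes only Gas1, a growth-arrest protein of fibroblasts, rose, with 3, 12, 1 and 4 against 0, 0, 10 and 75 reads (log2 fold change 2.28, adjusted p = 0.0109), and its call ended without GFP- replicates 1 or 4 or GFP+ replicate 4. Of 11 tested stem and progenitor genes, Thy1 rose and Cd24a fell, and the Thy1 call held only with GFP- replicates 1, 2 and 4 and GFP+ replicates 3 and 4 all in the fit. Cd24a, a surface glycoprotein of epithelial and progenitor cells, had 100, 282, 20 and 80 against 0, 0, 0 and 75 reads (log2 fold change −2.73 ± 0.69, adjusted p = 0.0025), every GFP+ read being from replicate 4.

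Several large groups held no called gene. None of 21 tested immediate early genes (median −0.54), 57 cytosolic ribosomal protein genes (−0.04), 30 nuclear oxidative phosphorylation genes (−0.72), 7 mitochondrially encoded messengers (−1.36) or 12 secretory chaperone genes (−0.73) passed. Fos, an immediate early gene, had 150, 466, 33 and 112 against 2, 7, 31 and 379 reads (log2 fold change −0.79, adjusted p = 0.597). Against the median of all genes at −0.26, the ribosomal protein genes lay slightly above it and the mitochondrial messengers below it.

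**Figure D4:**
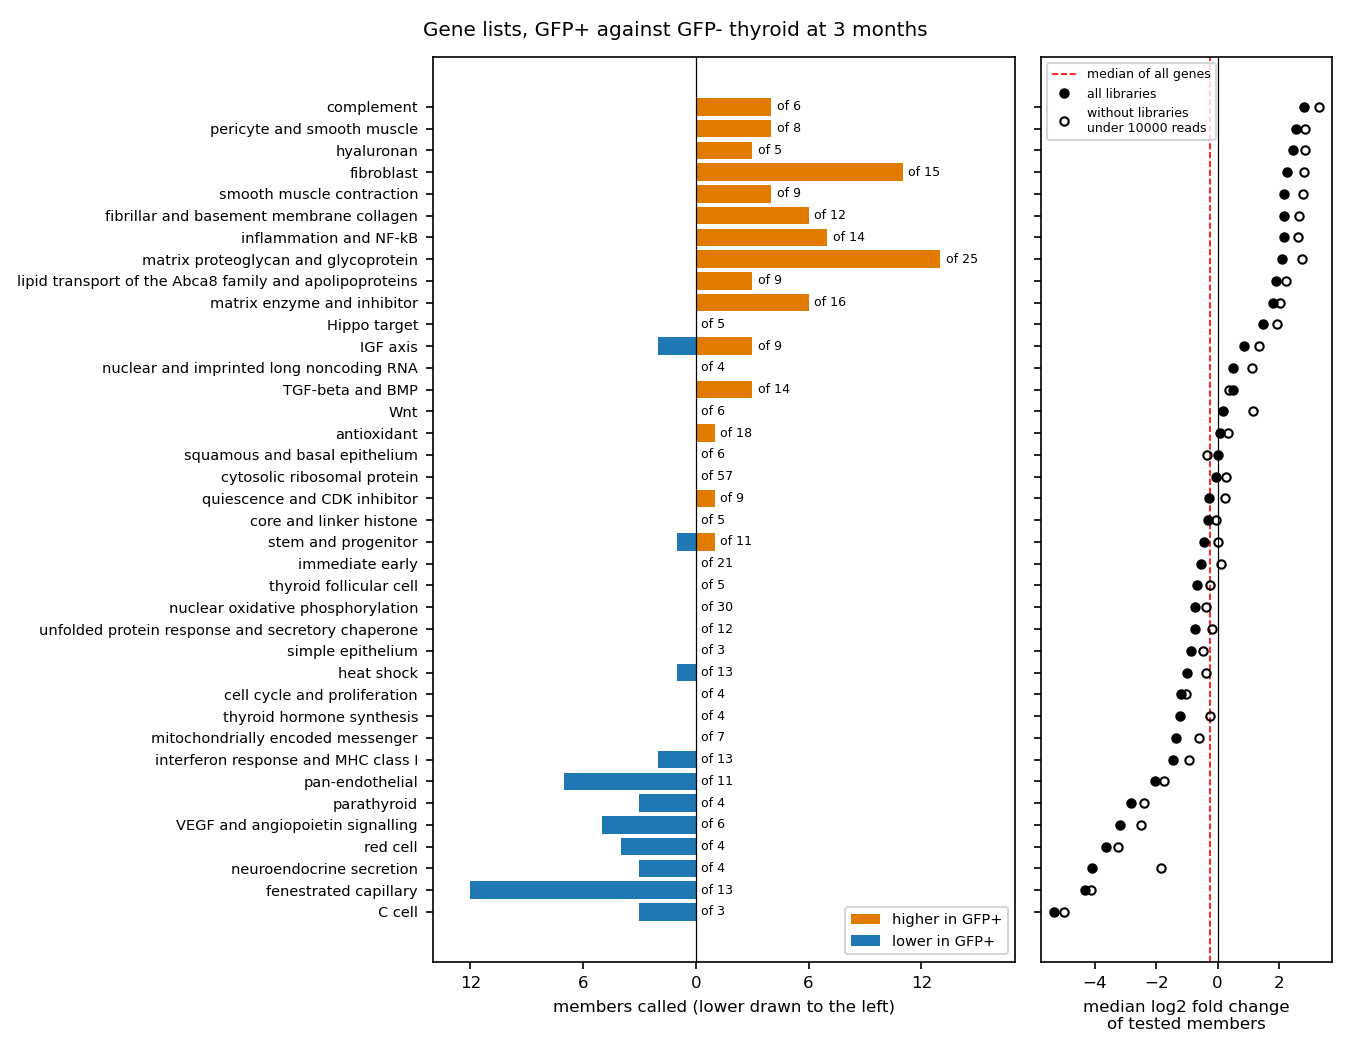
Gene lists with at least 3 tested members: members called higher (right) and lower (left) of those tested, and the median log2 fold change (GFP+ against GFP- at 3 months) with all libraries (filled) and without libraries under 10000 reads (open); the dashed line is the median of all tested genes. Fenestrated capillary and C cell markers lie at −4.33 and −5.34, and complement, smooth muscle and pericyte, and hyaluronan genes at 2.82, 2.56 and 2.47.

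The same 22-library fit gave the contrast at the other ages, from separate libraries. Some of these were also shallow. At 6 months GFP+ replicate 4 held 507 reads in genes and GFP- replicate 2 held 4845, and at 9 months GFP- replicate 1 held 5884. The filter that chose the tested genes and the estimate of the spread were shared by all ages. The overlaps below are therefore not an independent check of the calls at 3 months. At 6 months, 100 genes (5.26%) were higher and 35 (1.84%) lower in GFP+ cells, and at 9 months 5 (0.263%) and 31 (1.63%). Of the 94 genes higher at 3 months, 52 were also called higher at 6 months and 0 at 9 months, and 93 and 87 had the same sign there. Their median log2 fold change was 2.38 at 6 months and 1.08 at 9 months, where all tested genes had medians of −0.08 and 0.11. Of the 90 genes lower at 3 months, 30 were called lower at 6 months, 24 at 9 months and 16 at both, with medians of −1.79 and −1.76. No gene called at 3 months was called in the opposite direction at either age. A call at 1 age and not at another is not a test of the difference between ages, which follows.

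Against 6 months, 0 genes had a difference that departed from that at 3 months (68 had an unadjusted p below 0.05 in edgeR and 58 in DESeq2, which also called 0). Against 9 months, 5 genes (0.263%) had a higher GFP+ to GFP- difference at 3 months and 1 (0.0526%) a lower one. The higher ones were Bpifa1, Myh11, Acta2, Abca8b and Fhl1. Acta2 had 2, 24 and 4 reads in GFP- and 8, 35 and 8 in GFP+ libraries at 9 months, the 2 from the library of 5884 reads. At 6 months it had 2, 1, 11 and 8 against 21, 62, 55 and 0, the 0 from the library of 507 reads. Its log2 fold change was 5.02 at 3, 2.30 at 6 and 0.22 at 9 months, and the difference between 3 and 9 months was 4.80 (adjusted p = 0.0133). Myh11 had 1, 15 and 9 against 1, 3 and 0 reads at 9 months, with log2 fold changes of 3.68, 3.66 and −2.91 at the 3 ages and a difference between 3 and 9 months of 6.60 (adjusted p = 0.0016). Both genes were thus called higher in GFP+ cells at 3 and 6 months and not at 9.

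Abca8b, with 3, 20 and 13 against 9, 42 and 38 reads at 9 months, and Fhl1, with 1, 9 and 9 against 3, 24 and 7, were read in GFP- libraries at 9 months but not at 3. Their fitted differences between the ages, 6.11 (adjusted p = 0.0185) and 6.39 (adjusted p = 0.0276), depend on the prior count because of the unread group, as does that of Bpifa1.

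Bpifa1, a secreted protein of airway epithelium, had 1, 11, 0 and 1 against 0, 1, 0 and 50 reads at 3 months and 0, 32 and 4 against 0, 0 and 0 at 9 months (difference 8.36, adjusted p = 0.000398). It was not called at 3 months alone (adjusted p = 0.0962). Calml3, a calmodulin-like protein of stratified epithelium, was the gene with the lower difference, with 10, 23, 1 and 13 against 0, 0, 3 and 8 reads at 3 months and 0, 11 and 10 against 94, 63 and 1 at 9 months (difference −4.20, adjusted p = 0.0276). All 6 age calls ended when GFP+ replicate 4 at 3 months was left out. Those of Acta2, Abca8b, Fhl1 and Calml3 also ended without GFP- replicate 2 or 4 at 3 months, those of Abca8b and Fhl1 without GFP- replicate 1, and that of Fhl1 without GFP+ replicate 3. In DESeq2 Myh11 was the 1 gene that stayed called.

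**Figure D5:**
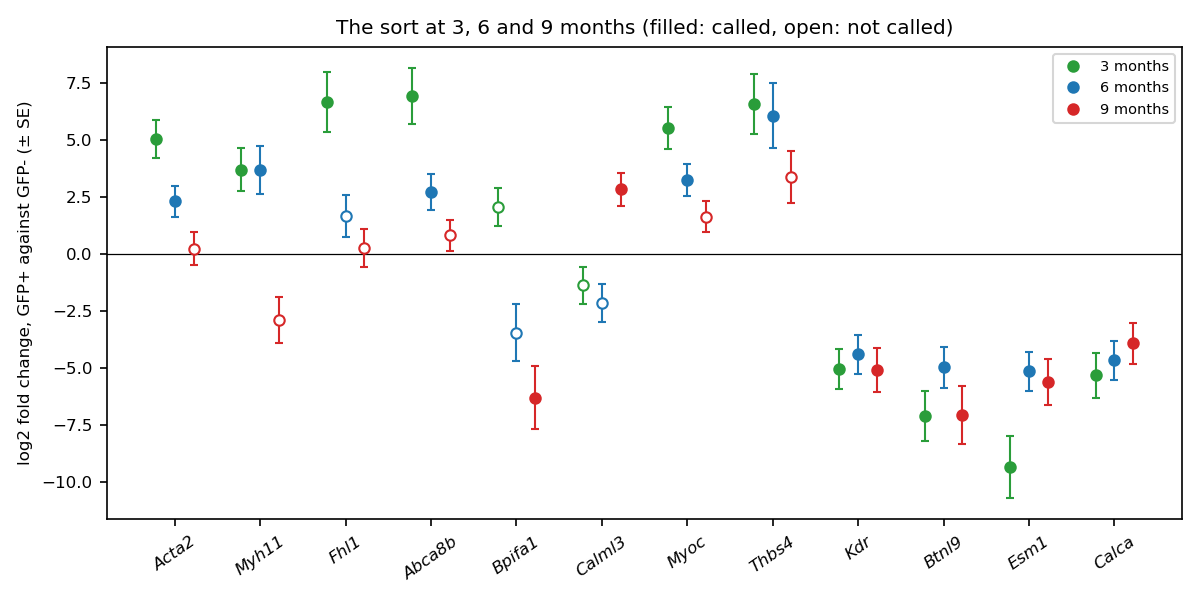
Fitted log2 fold change (GFP+ against GFP-) with its SE at 3, 6 and 9 months for 12 genes, filled where called and open where not. Acta2 and Myh11 are at 5.02 and 3.68 at 3 months and at 0.22 and −2.91 at 9 months, whereas Kdr, Btnl9, Esm1 and Calca are called lower at all 3 ages.

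Zfp711 and Ltf are examples of calls whose GFP+ reads all came from 1 library, and they are not a full list. Other calls that ended without GFP+ replicate 4 are named above. Zfp711, a zinc finger protein, was called higher (ratio of summed CPM 15.3, 95% interval 3.64 to 137; adjusted p = 0.00154) on 0, 0, 0 and 2 against 0, 17, 0 and 0 reads, and Ltf, lactoferrin, an antimicrobial protein of glandular epithelium and neutrophils (log2 fold change 2.65, adjusted p = 0.0367), on 0, 1, 0 and 6 against 0, 0, 0 and 62. All GFP+ reads of Zfp711 came from replicate 2 and all those of Ltf from replicate 4, and neither call held without that library. The Ltf call also ended without GFP- replicates 1, 2 or 3. Both were singled out after their values were seen.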

How the data were processed

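RNA of sorted thyroid cells was measured by 3′ mRNA sequencing. The deposited tables hold read counts per gene made by the authors, 1 table per library, with 47643 gene rows and 5 summary rows that stayed out of library sizes and tests. The build was mm9 and bcl2fastq was used, per the submitters' processing notes. The aligner, the counting program and its strand setting are not given in the sources used here. Symbols were matched for 47224 rows and not for 419.

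Groups followed the labels. All 22 thyroid libraries entered 1 fit of 6 groups in edgeR 4.0.16 (R 4.3.3) with TMM factors, filterByExpr (minimum 10, total 15), robust quasi-likelihood tests and Benjamini-Hochberg adjustment at 0.05. The biological coefficient of variation was 0.466. The TMM factors of GFP+ replicates 1 to 4 were 3.548, 1.494, 1.098 and 0.814, and those of the GFP- libraries lay between 0.638 and 0.779. CPM, means and SDs use library totals without these factors, and log2 fold changes are fitted values. Where a group had 0 reads, a bound was taken from 3 reads over the group. With 1 to 3 reads, a ratio of summed CPM is given with its exact 95% interval. Intervals and limits cover counting error only. No 2 libraries of a group were identical, and the chi-square per degree of freedom between them was at least 2.19.

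Alternatives were DESeq2 1.42.0, other scalings and filters, other sets of libraries, a replicate block, and leaving out each library. The fit was tested on simulated data. Per direction, the 15 called genes with the smallest adjusted p were named, leaving out predicted genes, and up to 6 called members per list, or up to 2 uncalled members of some lists, and a fixed set of 12. The gene lists and the comparison were chosen with earlier results of these data known. Promoter windows are the 250 bases before RefSeq starts on GRCm38.p6. They were used for letters only, since the counts were made on another build, and 69 of the 94 higher and 69 of the 90 lower genes had one.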

Additional observations from a re-analysis of the deposited data

Results flagged for a closer look

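In 216 groups of 4 libraries (each named gene in each fraction), 38 had 1 library far from the other 3 by Dixon's criterion. Its cut-off for 4 values flags about 1 in 20 groups where the values are normal and equally precise. These libraries differ widely in depth and often hold no read, so that share is not a benchmark for the 38. GFP+ replicate 4 was that library 15 times, and each time the other 3 libraries had no read. In that case any read in GFP+ replicate 4, the deepest of its group, sets the flag. In CPM it held 5.72 for Btnl9 and for Kl, 74.3 for Igfbp3 and for Cdh1, 45.7 for Plpp1, 97.2 for Plvap, 62.9 for Rflnb and for Hbb-bt, 17.1 for Col13a1, 137 for Hbb-bs, 22.9 for Hba-a1, 34.3 for Hspb1, 429 for Cd24a, 28.6 for Pax8 and 354 for Ltf.

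The shallow GFP+ replicate 1 stood apart 6 times, where 1 to 5 reads gave a high level or no read gave 0. Zfhx3 was at 3201, Tnxb at 2561, Pecam1 and Zbtb20 at 1280, Nnat at 640 and Acta2 at 0 CPM. GFP+ replicate 2 stood apart for Zfp711, at 2883 CPM.

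Among GFP- libraries, replicate 3, the shallowest, was apart for Acta2, Myh11 and Loxl1 (0 CPM each), Col5a2 and Cxcl1 (35.8 CPM each), Pcolce (71.5 CPM) and Mki67 (107 CPM). Replicate 4 was apart for Cyp2f2 (38.5 CPM), Vcam1 (12.8), Zfp711 (25.6) and Ltf (76.9). Replicate 1 was apart for Ptgs2 (21.4 CPM), Hspb1 (129), Tgfbi (10.7) and Apod (96.5), and replicate 2 for Dpt (171).

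The GFP+ to GFP- difference itself differed between 3 and 9 months for 6 genes, by a log2 difference of 8.36 for Bpifa1 (adjusted p = 0.000398), 6.60 for Myh11 (0.0016), 4.80 for Acta2 (0.0133), 6.11 for Abca8b (0.0185), 6.39 for Fhl1 (0.0276) and −4.20 for Calml3 (0.0276), by edgeR's quasi-likelihood test. None of the 6 was called without GFP+ replicate 4 at 3 months.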

How the results depend on the processing

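The counts of 94 higher and 90 lower genes moved with most choices. Higher genes numbered 47 with DESeq2, 199 with library totals only, 8 with no filter on low counts, 21 with a stricter filter (20 counts in 50% of libraries), 16 with the 8 libraries alone and 157 without libraries under 10000 reads. Lower genes numbered 14 with no filter, 22 with the stricter filter and 32 with the 8 libraries alone. The stricter filter tested 321 genes and the 8 libraries alone 459, so many calls were not tested there. The stricter filter left 86 of the 94 higher and 78 of the 90 lower genes untested, and 8 and 11 were called again. With the 8 libraries alone, 86 and 56 were untested, and 8 and 29 were called again. Leaving out 1 library gave 37 to 114 higher and 78 to 132 lower genes. Of the 5 genes with a higher difference at 3 than at 9 months, 1 was left with DESeq2, 1 with no filter and 0 with the stricter filter, against 13 with library totals only and 17 without libraries under 10000 reads. The 1 gene with a lower difference became 0 in these 5 settings. Leaving out 1 library gave 0 to 6 and 0 to 1.

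With the replicate number as a block, 9 genes were higher and 36 lower, and 24 of 87 named called genes stayed called. In the 8 libraries alone the block gave 6 and 21. Same-numbered GFP+ and GFP- libraries had correlations of −0.0499, −0.0531, −0.0439 and 0.0291 between their deviations, and not every library correlated best with its own number. Counting error is large in the shallow GFP+ libraries, so these correlations cannot tell whether the numbers pair the libraries. For the differences between 3 and 9 months the block, run after the data were seen, gave 2 higher genes, of which Bpifa1 was among the 5, and 0 lower, and for those between 3 and 6 months 0 in both directions.

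Leaving out 1 library moved Bpifa1 between −0.45 (without GFP+ replicate 4) and 3.26, and Foxe1 between −0.30 and 0.30, with −0.1118 without GFP- replicate 1 and −0.30 without GFP- replicate 4. Foxe1, at 0.05 on the log2 scale with all libraries, turned to −0.0773 with DESeq2, −0.0034 with its size factors, −0.0312 with no filter, −0.0162 with all 28 libraries, −0.0525 with the block and −0.11 without ribosomal RNA rows. The cause of these changes was not tested. Depth limits genes under 14.9 CPM in GFP+ cells.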

Other observations

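Skeletal muscle markers had 30 reads over the 4 GFP- and 8 over the 4 GFP+ libraries at 3 months, and no member had enough reads to be tested. Of the squamous and basal epithelium list, 6 genes were tested and 0 called. Of 5 tested core and linker histone genes 0 were called, with a median log2 fold change of −0.30. The Hippo target list, with 0 of 5 tested genes called and a median of 1.47, and the Wnt list, with 0 of 6 and 0.19, lay above the median of all genes without a call.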
